A study of Homo sapiens with 6 samples.

Results

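The enzymes that methylate lysine 9 of histone H3 (H3K9), and the proteins that recruit or stabilise them, were followed as 10 genes chosen by symbol: EHMT1, EHMT2, WIZ, ZNF644, SUV39H1, SUV39H2, SETDB1, SETDB2, ATF7IP and TRIM28. They are 10 of the 35580 genes to which the deposited transcripts could be joined, they comprise 229 of the 188753 transcripts in each table, and all 10 passed the filter on low counts that left 15223 genes for testing. The rule that chose them uses names and no expression value, but the genes were chosen with earlier results of these data known. The libraries came from Rh30, an established line of alveolar rhabdomyosarcoma; its PAX3-FOXO1 fusion is shared by both groups. The control group (3 libraries) and the siDDX5 group (3 libraries, knock-down of the DEAD-box RNA helicase DDX5) are described as biological replicates. The labels used here give neither the siRNA sequence nor the harvest time, and all values come from 1 cell line. Where the cultures were not grown separately, p-values would measure only the spread between these 6 libraries.

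EHMT1 (GLP) and EHMT2 (G9a) form a heterodimer that places mono- and dimethyl marks on H3K9 in euchromatin, and the zinc finger proteins WIZ and ZNF644 bind that dimer and bring it to chromatin. SUV39H1 and SUV39H2 place the trimethyl mark of constitutive heterochromatin, which HP1 proteins read. SETDB1 places the trimethyl mark at silenced genes and retroelements. ATF7IP keeps SETDB1 in the nucleus and stable, and TRIM28 (KAP1) links SETDB1 to the KRAB zinc finger proteins. SETDB2 is a relative of SETDB1.

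Transcript models that differ in a coding segment carried much of the counts of EHMT2, WIZ and SUV39H2, so those segments are shown before the values. All were read from GENCODE 29 transcripts on GRCh38, 5′ to 3′ on the strand of the gene. EHMT2 has a cassette exon at chr6:31888969-31889070 (minus strand, coding, 102 bases, exon 10 of 28 in EHMT2-203). Capitals mark the exon, and lower case marks the 15 bases on each side. EHMT2-203 and EHMT2-204 contain it, as does EHMT2-211, which is annotated as a processed transcript, and EHMT2-201 and EHMT2-202 join its neighbours directly.
EHMT2-203: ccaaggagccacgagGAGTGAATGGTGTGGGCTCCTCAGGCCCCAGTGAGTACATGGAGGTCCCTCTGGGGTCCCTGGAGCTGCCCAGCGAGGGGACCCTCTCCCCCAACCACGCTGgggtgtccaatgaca
EHMT2-202: ccaaggagccacgaggggtgtccaatgaca

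WIZ has an outer and an inner translation start. The first coding segment of the outer model, WIZ-201, lies at chr19:15448103-15448307 (minus strand, 205 bases), and that of the inner models, WIZ-206 and WIZ-207, at chr19:15431012-15431159 (minus strand, 148 bases). Capitals mark the annotated start codon.
WIZ-201: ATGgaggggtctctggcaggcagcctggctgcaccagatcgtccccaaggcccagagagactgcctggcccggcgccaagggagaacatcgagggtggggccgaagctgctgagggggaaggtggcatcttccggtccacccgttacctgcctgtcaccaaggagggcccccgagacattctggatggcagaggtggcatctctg
WIZ-206 and WIZ-207: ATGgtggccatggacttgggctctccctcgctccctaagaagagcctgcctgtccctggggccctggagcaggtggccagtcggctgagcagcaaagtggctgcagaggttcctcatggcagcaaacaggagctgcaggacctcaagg

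SUV39H2 has a coding exon at chr10:14881500-14881645 (plus strand, 146 bases, exon 2 of 6 in SUV39H2-202) that SUV39H2-205, the model with most of the gene's counts, skips. The exon is in capitals, with 15 bases on each side in lower case.
SUV39H2-202: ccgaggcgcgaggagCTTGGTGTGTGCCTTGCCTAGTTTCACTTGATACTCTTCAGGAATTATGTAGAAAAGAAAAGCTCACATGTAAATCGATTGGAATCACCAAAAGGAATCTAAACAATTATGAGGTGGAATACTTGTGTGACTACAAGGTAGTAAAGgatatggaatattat
SUV39H2-205: ccgaggcgcgaggaggatatggaatattat

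Total estimated counts were 26156858, 21265569 and 24229578 in control replicates 1, 2 and 3, and 19971888, 19282386 and 18202402 in siDDX5. The deepest siDDX5 library thus had fewer counts than the shallowest control. A count of 3, taken as the floor of detection, equals 0.115 to 0.165 CPM (counts per 1000000 counts of the library). The CPM of genes below are also scaled between libraries by TMM. Those of single transcripts are not, so the 2 kinds are not on exactly 1 scale. Intervals cover counting error and replicate spread only as far as the fit models them. Of 10 markers of alveolar rhabdomyosarcoma, 8 had a mean of at least 1 TPM (transcripts per 1000000 transcripts, a level per length), and TFAP2B was listed at 0 in every library. Their summed level was 1052 to 1339 TPM in control and 1004 to 1064 TPM in siDDX5. The summed levels of 5 epithelial markers were 1.527 to 1.812 TPM in control and 1.378 to 2.497 TPM in siDDX5, with KRT19 listed at 0 and KRT5 below 0.1 TPM throughout. Of the immune markers, CD68 was at 14.88 to 16.66 TPM in control and 9.442 to 12.32 TPM in siDDX5, PTPRC at 2.327 to 3.428 and 0.7136 to 2.766 TPM, and CD3E below 0.1 TPM in every library. For 3 endothelial markers the summed levels were 5.474 to 7.272 and 4.48 to 6.373 TPM. In RNA from bulk cultures, fewer cells of a type and less RNA per cell cannot be told apart. The part of these markers or of depth in the values below was not tested. On the first principal component (31.4% of the variance) the 2 libraries numbered 3 stood away from the remaining 4.

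DDX5, the knock-down target, was at 1352, 1434 and 1137 CPM in the 3 control libraries and at 549.4, 504.5 and 395.9 CPM in the 3 siDDX5 libraries. The groups did not overlap. The log2 fold change was -1.44 (SE 0.15, adjusted p = 0.01058, edgeR quasi-likelihood test with Benjamini-Hochberg adjustment), and DDX5 was lower in each library labelled siDDX5 than in each control.

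None of the 10 genes passed the test at an adjusted p under 0.05 in the comparison of siDDX5 with control, against 25 of all genes tested (0.164%). At an unadjusted p under 0.05, 1 of the 10 passed (WIZ), against 11.4% of all genes. Deviations of same-numbered libraries from their group means were correlated, by 0.58 for replicate 3 and by 0.21 and 0.27 for replicates 1 and 2. Whether same-numbered libraries were made together is not given by the labels. In the fit that adds a block for the replicate number, 1 of the 10 passed at an adjusted p under 0.05 (WIZ, lower), against 2.59% of all genes. With the block, 3 of the 10 had an unadjusted p under 0.05 (WIZ, EHMT1 and ATF7IP, all lower), against 20.5% of all genes. The 3 libraries of a group lay wholly to 1 side of the other group's in 2 of the 10 genes, against 18% of all genes, and both were lower in siDDX5 (WIZ and ATF7IP), against 9.16% of all genes. Of the 10 fold changes 5 were negative and 5 positive, and their median was -0.04 on the log2 scale, beside -0.002 over all genes tested; the signs of EHMT2, SETDB1, SETDB2, SUV39H1 and TRIM28 turned in at least 1 alternative processing. Without both replicate 3 libraries, none of the 10 passed in edgeR (1 had an unadjusted p under 0.05), and the log2 fold changes were -0.37 for WIZ, -0.25 for EHMT1, -0.21 for ATF7IP and 0.23 for ZNF644. The middle 50% of all genes lay between -0.17 and 0.15, and the middle 90% between -0.48 and 0.43. In absolute size WIZ stood at the 87th percentile of all genes, ATF7IP at 72.9, EHMT1 at 70.5 and ZNF644 at 62.4, and SUV39H1 at 10.6.

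**Figure D1:**
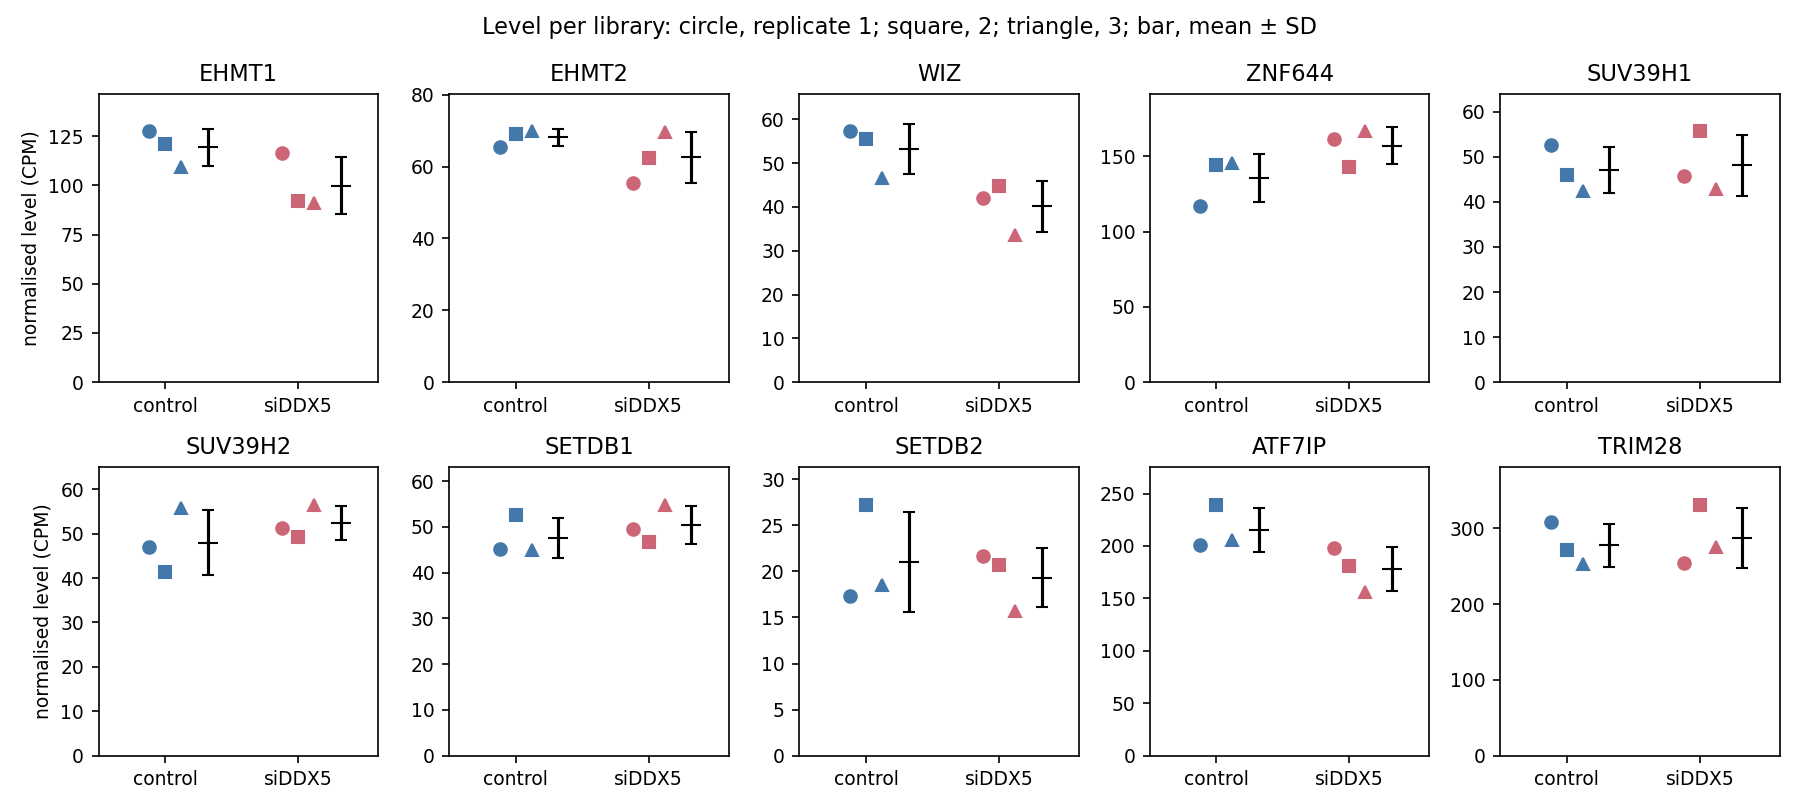
Normalised level (CPM, linear axis from 0) of each of the 10 genes in the 6 libraries, with marker shape for replicate number and a bar for the mean ± SD of 3. The siDDX5 points lie wholly below the control points for WIZ and ATF7IP and overlap them in the other 8.

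**Figure D2:**
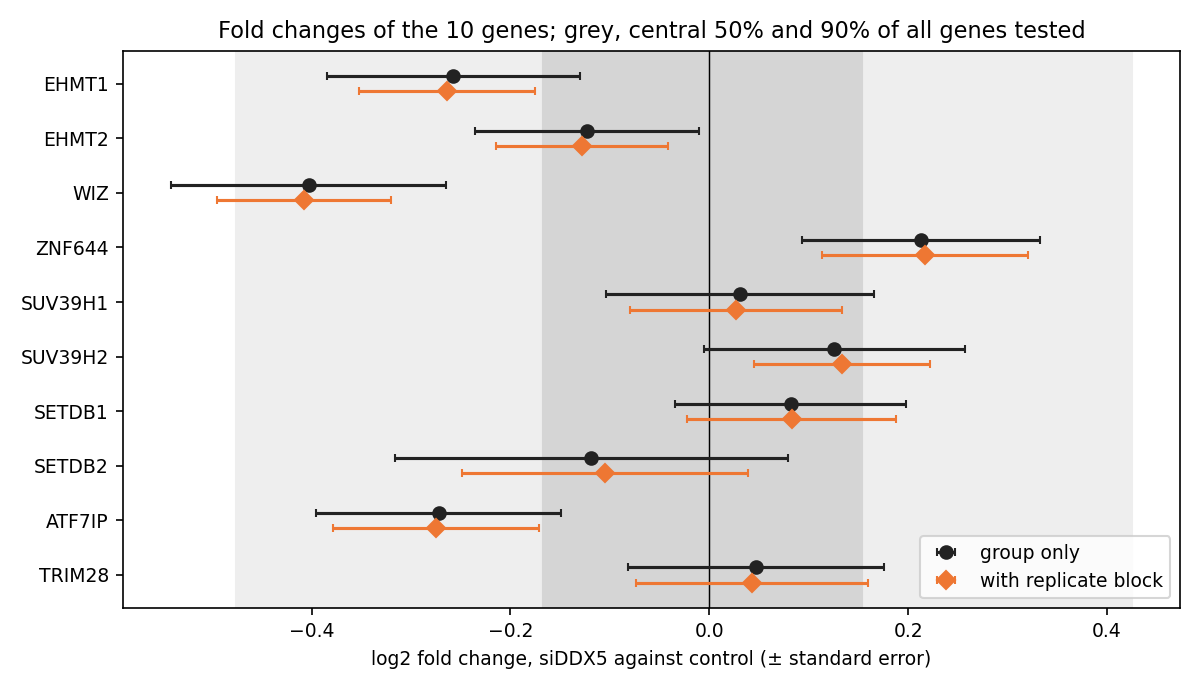
Log2 fold change of each gene in siDDX5 against control, with its standard error, from the fit on group alone and the fit with the replicate block; grey bands hold the middle 50% and 90% of all 15223 genes tested. WIZ has the lowest fold change, -0.40, and ZNF644 the highest, 0.21.

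EHMT1 (chr9:137618963-137870016, plus strand) was at 127.6, 121.3 and 109.3 CPM in control and at 116.7, 91.99 and 90.98 CPM in siDDX5. Replicate 1 of siDDX5 lay within the control range and the other siDDX5 libraries below it, so the groups overlapped. Means were 119.4 ± 9.31 CPM in control and 99.9 ± 14.6 CPM in siDDX5 (SD, n = 3 each), for a fitted log2 difference of -0.26 (SE 0.13, 95% interval -0.54 to 0.03, edgeR adjusted p = 0.4857, and 0.1426 with the block). On TPM with limma the difference was -0.445 or -0.448, by pseudocount.

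EHMT2 (chr6:31879759-31897687, minus strand) was at 65.36, 69.12 and 69.87 CPM in control and at 55.51, 62.43 and 69.75 CPM in siDDX5. The siDDX5 libraries were more spread than the controls, and replicate 3 of siDDX5 stood beside control replicate 3. Means were 68.1 ± 2.41 and 62.6 ± 7.12 CPM (SD, n = 3 each) and the log2 fold change was -0.12 (SE 0.11, 95% interval -0.38 to 0.13, edgeR adjusted p = 0.7263). The gene lies in the major histocompatibility region, for which the transcript set holds several haplotype copies: 70 of its 82 transcripts were such copies, and they held 97.7% of its counts. A 1517-base transcript had 7 copies, and these held identical counts within every library. From the 12 primary-assembly transcripts alone the log2 fold change was 0.28, the opposite sign, on the remaining counts.

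WIZ (chr19:15419980-15449951, minus strand) was at 57.28, 55.47 and 46.65 CPM in control and at 42.03, 44.83 and 33.66 CPM in siDDX5. Every siDDX5 library lay below every control, and each was below the control of its own number, by log2 differences of -0.45, -0.31 and -0.47. The mean was 53.1 ± 5.69 CPM in control and 40.2 ± 5.81 CPM in siDDX5 (SD, n = 3 each), 24.4% lower by the fitted log2 fold change of -0.40 (SE 0.14, 95% interval -0.71 to -0.09). The edgeR adjusted p was 0.3134 on group alone and 0.04864 with the replicate block. With 1 replicate number left out, the blocked fit had 4 libraries in place of 6, and its adjusted p was 0.05021 without replicate 1, 0.004443 without replicate 2 and 0.3941 without replicate 3, while the log2 fold changes of -0.39, -0.46 and -0.38 were close to the -0.41 of all 6. Over all genes, 968 of 15318, 1241 of 15518 and 211 of 15299 passed in these fits, in the same order.

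ZNF644 (chr1:90915298-91022272, minus strand) was at 117.2, 143.9 and 145.6 CPM in control and at 161.6, 143.2 and 166.7 CPM in siDDX5. Replicates 1 and 3 of siDDX5 lay above all controls and replicate 2 lay within their range. Its log2 fold change was 0.21 (SE 0.12, 95% interval -0.06 to 0.48, edgeR adjusted p = 0.5383, and 0.279 with the block), and 0.123 without control replicate 1. The sign was opposite to that of WIZ, the other zinc finger partner. The difference between the genes was not tested.

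SUV39H1 (chrX:48695554-48709012, plus strand) was at 52.73, 46.03 and 42.48 CPM in control and at 45.68, 55.71 and 42.90 CPM in siDDX5. SUV39H2 (chr10:14878820-14904315, plus strand) was at 46.89, 41.27 and 55.80 CPM in control and at 51.36, 49.22 and 56.54 CPM in siDDX5. The groups overlapped in both paralogs. Log2 fold changes were 0.03 for SUV39H1 (95% interval -0.27 to 0.33, edgeR adjusted p = 0.957) and 0.13 for SUV39H2 (95% interval -0.17 to 0.42, edgeR adjusted p = 0.7632). The SUV39H2 value was 0.033 without control replicate 2 and 0.248 without control replicate 3. Each interval includes both signs, so neither a lower nor a higher level was excluded with 6 libraries.

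SETDB1 (chr1:150926263-150964744, plus strand) was at 45.22, 52.55 and 44.91 CPM in control and at 49.53, 46.62 and 54.84 CPM in siDDX5. SETDB2 (chr13:49444374-49495003, plus strand) was at 17.34, 27.25 and 18.48 CPM in control and at 21.63, 20.68 and 15.68 CPM in siDDX5. Control replicate 2 held the highest SETDB2 value, and the coefficient of variation among the controls was 25.8%. Log2 fold changes were 0.08 for SETDB1 (95% interval -0.18 to 0.34, edgeR adjusted p = 0.8347) and -0.12 for SETDB2 (95% interval -0.56 to 0.32, edgeR adjusted p = 0.8629).

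ATF7IP (chr12:14365632-14502935, plus strand) was at 200.5, 239.4 and 205.6 CPM in control and at 198.2, 180.5 and 155.8 CPM in siDDX5. The groups did not overlap, but replicate 1 of siDDX5 was next to control replicate 1, with log2 differences within the numbered pairs of -0.02, -0.41 and -0.40. The mean was 215 ± 21.1 CPM in control and 178 ± 21.3 CPM in siDDX5 (SD, n = 3 each), with a fitted log2 difference of -0.27 (SE 0.12, 95% interval -0.55 to 0.0041, edgeR adjusted p = 0.447, and 0.1789 with the block). On TPM with limma it was -0.449 or -0.456. Without replicate 1 the blocked edgeR fit gave -0.40 with an adjusted p of 0.02876, and 968 of all 15318 genes passed in that fit.

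TRIM28 (chr19:58544091-58550722, plus strand) was at 309.0, 271.8 and 253.4 CPM in control and at 254.5, 331.4 and 276.0 CPM in siDDX5. The lowest and the highest siDDX5 values enclosed most of the controls, and the log2 fold change was 0.05 (95% interval -0.24 to 0.34, edgeR adjusted p = 0.9243).

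Levels were compared between genes only per length, in summed TPM. In control the order was TRIM28 (438 ± 29.1 TPM), EHMT1 (166 ± 6.96), ZNF644 (90.8 ± 6.24), ATF7IP (80.1 ± 5.71), SUV39H2 (53.5 ± 6.60), SETDB1 (41.0 ± 2.11), EHMT2 (28.9 ± 2.71), SUV39H1 (24.3 ± 2.97), WIZ (15.2 ± 1.31) and SETDB2 (13.3 ± 2.85; SD, n = 3 each). Neighbours whose control ranges overlapped were ZNF644 and ATF7IP, EHMT2 and SUV39H1, and WIZ and SETDB2. In siDDX5 the highest and lowest genes were again TRIM28 (438 ± 2.49 TPM) and the pair of WIZ (11.4 ± 1.24) and SETDB2 (11.4 ± 2.60), and EHMT1 was at 126 ± 41.0 TPM. The rank of EHMT1 depended on very short models: 18 of its 52 transcripts are at most 150 bases long (shortest 86), and they held 39.6 to 55.3% of its summed TPM but only 0.707 to 1.19% of its counts. Summed over transcripts of at least 1000 bases, a rule chosen after these values were seen, EHMT1 was at 45.5 ± 3.41 TPM in control, below TRIM28 (96.6 ± 9.99), ATF7IP (63.3 ± 6.80), ZNF644 (59.3 ± 4.44) and SUV39H2 (52.1 ± 7.20), and its range overlapped that of SUV39H2. TRIM28 remained highest, though its transcripts of that length held only 20.1 to 26.4% of its summed TPM, and 18.91 to 24.98% of its counts lay on models annotated as retained introns.

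**Figure D3:**
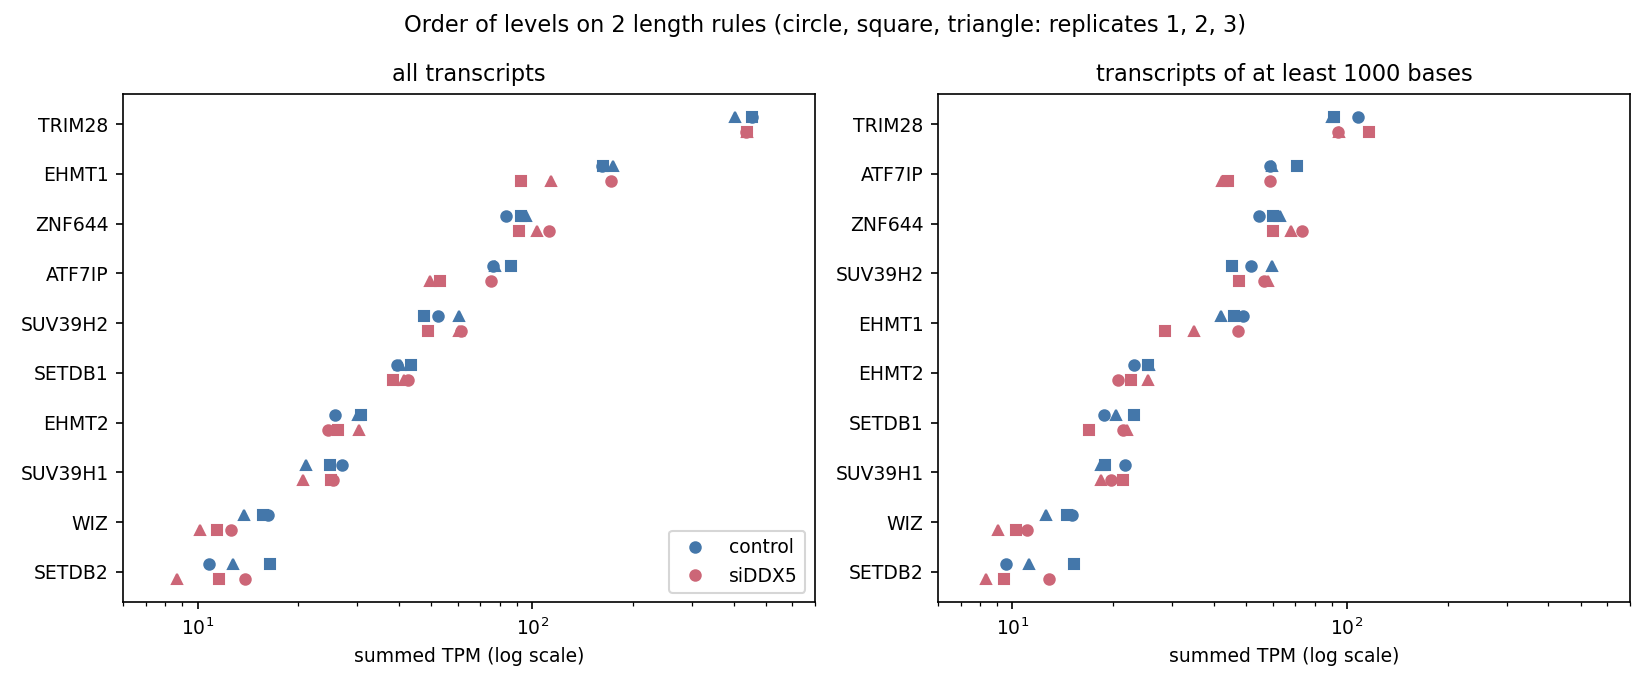
Summed TPM per library (log axis) of the 10 genes in control and siDDX5, over all transcripts and over transcripts of at least 1000 bases, ordered by the control mean. EHMT1 moves from 166 TPM and the second place to 45.5 TPM and the fifth, while TRIM28 stays first and SETDB2 last.

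The balance within 3 pairs of partners or paralogs was compared as the ratio of summed TPM, with an exact two-sided permutation test whose smallest possible p is 0.1. The ratio of SETDB1 to its partner ATF7IP was 0.516, 0.500 and 0.519 in control and 0.565, 0.722 and 0.834 in siDDX5, so every siDDX5 library lay above every control. Its mean went from 0.512 ± 0.010 to 0.707 ± 0.135 (SD, n = 3 each, log2 difference 0.45, exact p = 0.1). Mean SETDB1 levels were 41.0 TPM in control and 40.7 TPM in siDDX5, and those of ATF7IP 80.1 and 59.3 TPM. The ratio thus restates the lower ATF7IP values given above. Its log2 difference was 0.357 on normalised CPM and 0.346 from transcripts of at least 1000 bases. How often ratios of other gene pairs separate was not computed. The ratio of EHMT1 to EHMT2 was 6.27, 5.27 and 5.80 in control and 6.98, 3.52 and 3.75 in siDDX5, which spanned the control values (log2 difference -0.35, exact p = 0.4). From transcripts of at least 1000 bases the means of that ratio were 1.85 and 1.64. The ratio of SUV39H1 to SUV39H2 was 0.514, 0.523 and 0.348 in control and 0.415, 0.515 and 0.342 in siDDX5 (log2 difference -0.12, exact p = 0.6), and replicate 3 was the lowest in each group. None of the 3 ratios could reach a p under 0.05 with 3 libraries a group.

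The division of counts among the transcripts of each gene was compared next, with haplotype copies of the same transcript merged. In the test of transcript usage none of the 10 genes passed (edgeR diffSpliceDGE with Simes test, adjusted p = 1 in each), against 1.64% of the genes with at least 2 transcripts tested; the smallest unadjusted p was 0.155, for EHMT1. In the test of single transcripts none of the 95 tested from these genes passed in edgeR (smallest adjusted p 0.5354), against 0% of all 60208 transcripts tested. At an unadjusted p under 0.05 there were 4 of the 95 (4.21%) on group alone, against 7.03% of all transcripts. With the replicate block there were 8, and the matching share of all transcripts was not computed. None passed at an adjusted p under 0.05 in the blocked edgeR fit (smallest 0.6243). The shares below are therefore descriptions. How often such shares do not overlap between the groups over all genes was not computed. Counts of transcripts that share sequence are estimates of the quantification and move together.

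WIZ-206 and WIZ-207, the models that begin with the inner coding segment printed above, together held 78.6, 75.9 and 81.9% of the WIZ counts in control and 68.3, 46.6 and 60.1% in siDDX5. WIZ-201, with the outer start, held 11.8, 22.4 and 16.4% in control and 29.6, 36.8 and 32.7% in siDDX5. The groups did not overlap in either share, and both shares are parts of the same WIZ total. WIZ-203, in neither set, held 7.98, 0 and 0% in control and 0, 14.9 and 5.37% in siDDX5. The last exon has 3256 bases in WIZ-201, 1149 in WIZ-206 and 1713 in WIZ-207. Reads from its far end cannot be placed on the inner models, so the shares do not measure use of the 2 starts. The mean share of WIZ-201 was 16.9 ± 5.31% in control and 33.0 ± 3.60% in siDDX5 (SD, n = 3 each), and the gene's usage test gave an unadjusted p of 0.5911. By level, WIZ-206 was at 26.8, 24.4 and 21.1 CPM in control and at 13.7, 14.3 and 16.2 CPM in siDDX5, a fitted log2 difference of -0.66 (SE 0.17, edgeR adjusted p = 0.5354). WIZ-207 had -1.04 (SE 0.46, adjusted p = 0.7296) and WIZ-201 had 0.62 (SE 0.29, adjusted p = 0.7378) in edgeR.

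**Figure D4:**
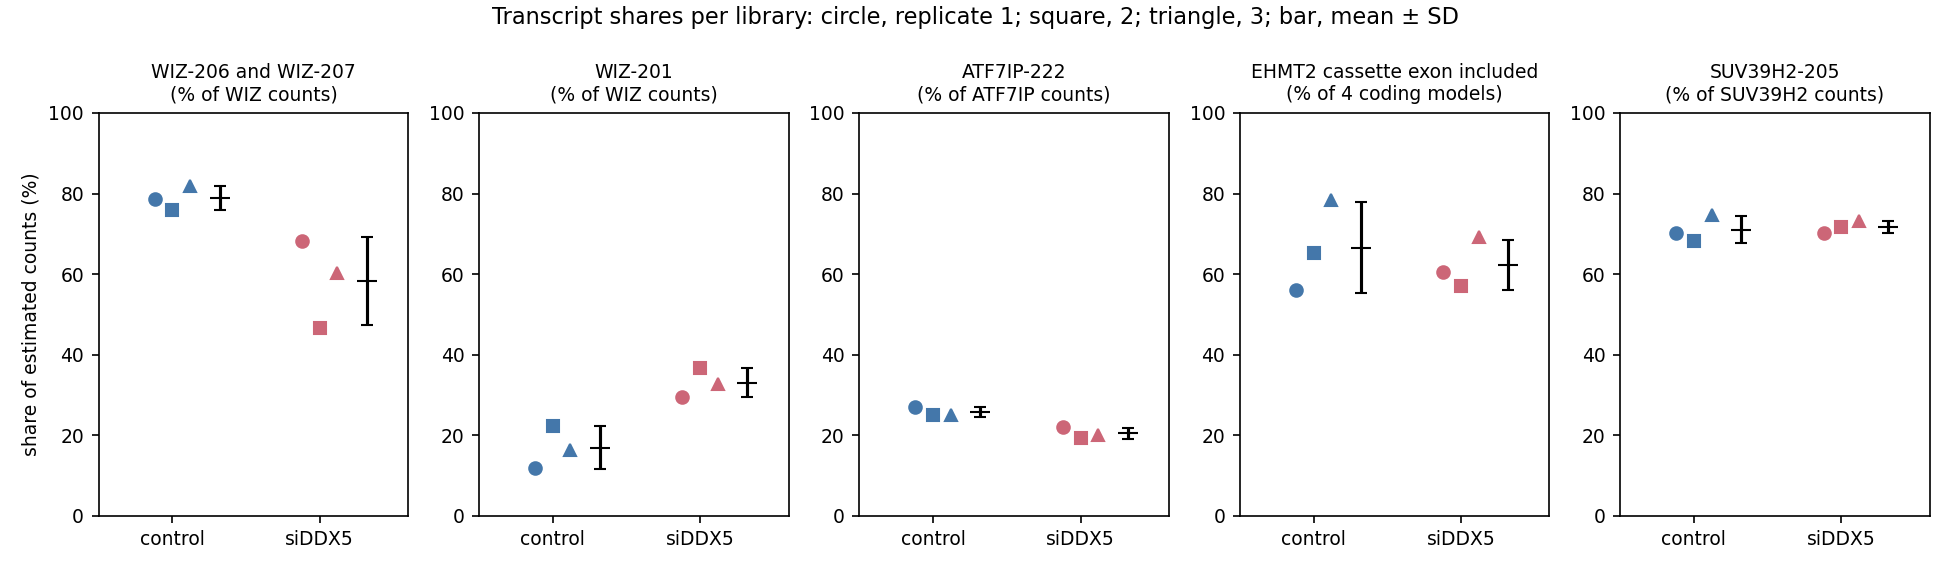
Share of estimated counts (%) per library of 4 transcript sets, and of inclusion of the EHMT2 cassette exon among 4 coding models, with a bar for the mean ± SD of 3. The WIZ-201 points are higher in siDDX5 and those of WIZ-206 plus WIZ-207 and of ATF7IP-222 lower without overlap, while the EHMT2 and SUV39H2 points overlap. No usage test passed, and how often shares separate over all genes was not computed.

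ATF7IP was divided among ATF7IP-209 (33.9% of its counts on average over the 6 libraries), ATF7IP-201 (31.8%) and the shorter ATF7IP-222 (23.1%). ATF7IP-222 held 27.05, 24.99 and 25.1% in control and 22.0, 19.4 and 19.9% in siDDX5, again without overlap. The log2 fold change of its level was -0.56 (SE 0.15, edgeR adjusted p = 0.5526), beside -0.06 for ATF7IP-209 and -0.09 for ATF7IP-201.

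The EHMT2 cassette exon was present in 56.0, 65.2 and 78.4% of the counts of the 4 coding models EHMT2-201 to EHMT2-204 in control, and in 60.5, 57.1 and 69.1% in siDDX5, and the groups overlapped widely. Means were 66.5 ± 11.3% and 62.3 ± 6.17% (SD, n = 3 each). The model with most counts, EHMT2-203, was at 18.6, 18.3 and 30.7 CPM in control and at 12.1, 18.9 and 14.1 CPM in siDDX5, and EHMT2-204 ranged from 0.000235 to 17.2 CPM over the libraries with no separation of the groups. EHMT2-211 held 13.9 ± 3.81% of all EHMT2 counts in control and 14.9 ± 1.96% in siDDX5 (SD, n = 3 each). A single haplotype model of 3980 bases held 373.1 counts in control replicate 1 and at most 0.2 in the other libraries, 22.2% of the EHMT2 counts of that library. It is not among the 4 coding models, so the inclusion value of control replicate 1 leaves those counts out.

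SUV39H2-205, which lacks the exon printed above and is annotated as subject to nonsense-mediated decay, held 71.0 ± 3.36% of the gene's counts in control and 71.7 ± 1.49% in siDDX5 (SD, n = 3 each). Only SUV39H2-205 and SUV39H2-201 reach the end of the gene at position 14904315, and both skip the exon. Reads from the end of the last exon can therefore be placed only on models without it, and the share is not a measured rate of exon skipping. SUV39H2-202, which has the exon, held 18.2 ± 1.42% and 17.0 ± 1.14%. SUV39H1 counts lay mostly on SUV39H1-202 (89.1 ± 2.88% in control and 91.5 ± 3.90% in siDDX5).

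SETDB1-201 held 44.1 ± 7.05% of the SETDB1 counts in control and 54.8 ± 5.34% in siDDX5 (SD, n = 3 each), and its level had a fitted log2 difference of 0.45 (SE 0.18, edgeR adjusted p = 0.6947). SETDB2-203 held 53.33 ± 15.4 and 50.02 ± 7.58% of the SETDB2 counts, EHMT1-203 held 48.5 ± 3.66 and 51.1 ± 6.09% of the EHMT1 counts, and ZNF644-201 held 75.3 ± 5.84 and 77.8 ± 3.92% of the ZNF644 counts. Among the second models, SETDB1-217 held 13.8 ± 2.85 and 11.4 ± 1.27%, SETDB2-201 held 35.05 ± 3.48 and 30.7 ± 4.81%, and ZNF644-204 held 14.7 ± 3.71 and 11.6 ± 3.61% of their gene's counts. TRIM28 counts were divided among 4 main models: TRIM28-202 held 28.3 ± 2.68 and 30.2 ± 1.87%, a coding model of 1552 bases held 19.62 ± 0.41 and 20.04 ± 2.60%, TRIM28-204 held 15.9 ± 0.87 and 14.2 ± 1.37%, and TRIM28-201 held 13.7 ± 0.93 and 13.8 ± 0.54%. The usage test passed for none of these genes. The remaining transcript with an unadjusted p under 0.05 on group alone was EHMT1-206, named after its values were seen. It was at 0.27, 0.29 and 0.36 CPM in control and 1.02, 0.64 and 0.90 CPM in siDDX5 (log2 fold change 1.47, edgeR adjusted p = 0.5916).

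Genes that act with or against these enzymes were counted in 8 lists. No gene of any list passed at an adjusted p under 0.05 on group alone in edgeR. The list of other histone methyltransferases (22 genes, all tested) also holds the partner subunits EED and SUZ12. Of its fold changes 18 were negative and 4 positive, and the median was -0.19, beside -0.002 over all genes. In edgeR 7 of the 22 genes had an unadjusted p under 0.05, all lower, against 11.4% of all genes in either direction. That median was -0.053 without siDDX5 replicate 2 and -0.092 with counts from length-scaled TPM. With the replicate block 3 of the 22 passed, all lower, against 2.59% of all genes. SETD1A, which methylates H3K4 at promoters, was at 66.0, 73.5 and 66.8 CPM in control and at 46.9, 48.1 and 45.0 CPM in siDDX5, without overlap (log2 fold change -0.56, SE 0.10, edgeR adjusted p = 0.0703, and 0.01253 with the block). Its paralog SETD1B was at 34.9, 32.8 and 33.6 CPM in control and at 27.4, 22.2 and 22.3 CPM in siDDX5 (-0.49, SE 0.13, edgeR adjusted p = 0.1828, and 0.038 with the block). DOT1L, the H3K79 methyltransferase, overlapped between the groups, with means of 81.9 ± 13.5 and 62.4 ± 13.6 CPM (-0.39, SE 0.17, edgeR adjusted p = 0.4267, and 0.04489 with the block). In the blocked fit without replicate 3, none of the list genes passed, against 211 of all 15299 genes tested.

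The list of H3K9 demethylases (12 genes, all tested) also holds RIOX1, whose log2 fold change was 0.13. Of the 12 genes, 0 passed with the block. With RIOX1, the fold changes were 9 negative and 3 positive, and the median was -0.14. It was -0.033 without control replicate 3, -0.047 without siDDX5 replicate 1 and -0.037 with length-scaled TPM. PHF8 was at 61.7 ± 1.34 CPM in control and 50.5 ± 2.96 CPM in siDDX5 (log2 fold change -0.29, edgeR adjusted p = 0.314), and KDM1A (LSD1) at 181 ± 3.48 and 201 ± 2.76 CPM (0.15, adjusted p = 0.5633 in edgeR). Of 4 PRDM genes 3 were tested, with a median of -0.32, and PRDM16 was at only 1.01 ± 0.241 and 0.350 ± 0.069 CPM (-1.51, SE 0.36, edgeR adjusted p = 0.148, and 0.05655 with the block), while MECOM had a log2 fold change of -0.32 (edgeR adjusted p = 0.6023). Of 10 readers of methylated H3K9 and HP1 proteins none had an unadjusted p under 0.05 and the median was -0.07. CDYL2 had -0.57 (adjusted p = 0.5744) and CBX3, the HP1 gamma gene, 0.18 (adjusted p = 0.5983) in edgeR. Of 7 genes of the HUSH complex and its effectors, which work with SETDB1, none had an unadjusted p under 0.05 either and the median was -0.09, with -0.16 for MORC2 and -0.14 for TASOR2.

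Of 17 genes of the E2F6 and REST complexes, in which EHMT enzymes take part, those with an unadjusted p under 0.05 were 1 higher and 2 lower, 3 of 17 against 11.4% of all genes. The median was 0.05, and it was -0.023 with limma at both pseudocounts and 0.131 on primary-assembly transcripts. RCOR1, a REST corepressor, was at 68.9 ± 6.65 CPM in control and 52.9 ± 6.42 CPM in siDDX5 (log2 fold change -0.38, edgeR adjusted p = 0.2937, and 0.05759 with the block), and HDAC1 at 115 ± 4.18 and 135 ± 6.79 CPM (0.23, adjusted p = 0.4113 in edgeR). Of 7 genes of DNA methylation, TET3 had a log2 fold change of 0.42 (edgeR adjusted p = 0.3225) and DNMT1, the maintenance methyltransferase, -0.26 (edgeR adjusted p = 0.3478), and the median was -0.04. Of 24 germline genes that H3K9 methylation is known to keep silent in somatic cells, 15 had any count and 6 were tested, with a median of 0.09. STAG3 had -0.42 (edgeR adjusted p = 0.3571) and TDRD1 0.30 (edgeR adjusted p = 0.559). These genes were already expressed in control, with means of 7.94 TPM for STAG3 and 8.50 TPM for TDRD1. The median leaves out the genes below the count filter, so it is not a readout of silencing. None of the 6 tested germline genes passed with the block.

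**Figure D5:**
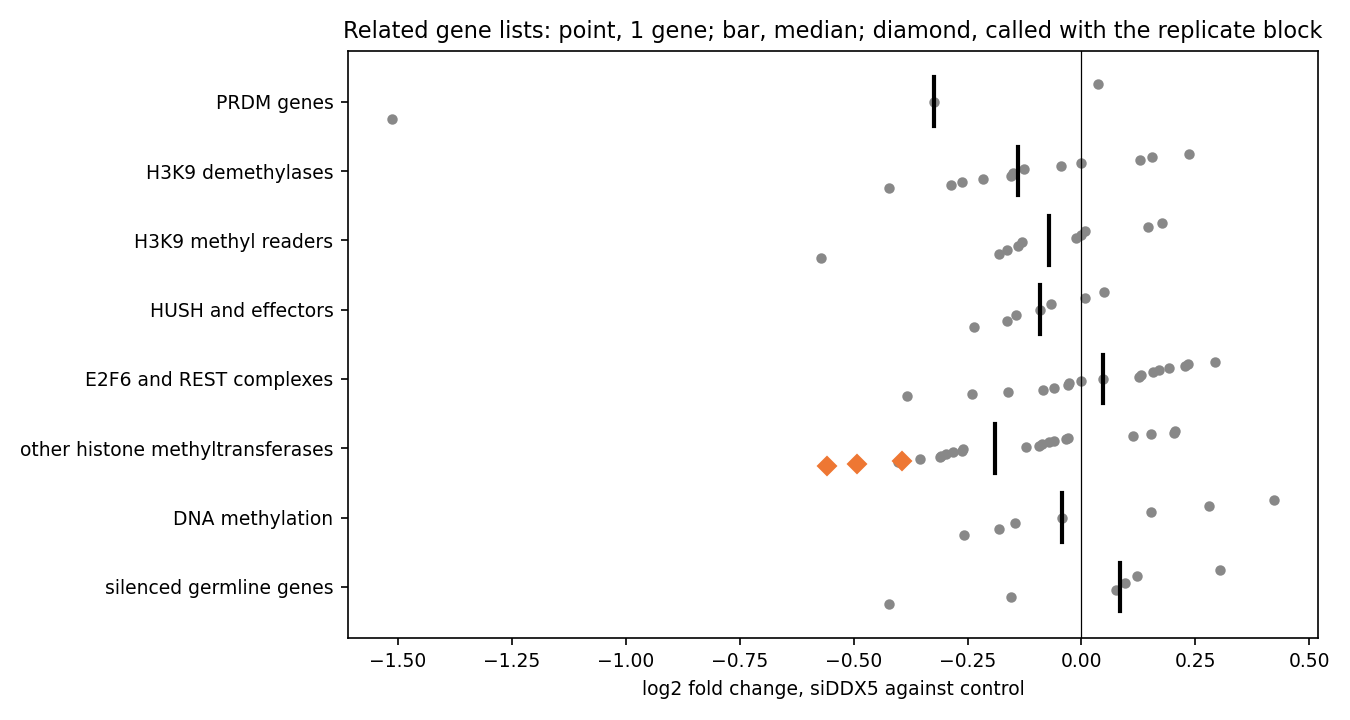
Log2 fold change in siDDX5 against control of each tested gene (1 point) in 8 related lists, with a bar for the median and a diamond for genes that passed with the replicate block. The 3 diamonds are SETD1A, SETD1B and DOT1L, and the median of their list is -0.19 (-0.053 without siDDX5 replicate 2).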

How the data were processed

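RNA was sequenced from 3 control and 3 siDDX5 libraries of Rh30 cells (TruSeq Stranded mRNA, per the labels' protocols). The authors deposited estimated counts and TPM for each transcript; bcl2fastq 2.20, FastQC 0.11.8, cutadapt 1.11, kallisto 0.46.0 and GRCh38 are named in the submitters' processing notes, and the annotation release is not given in the sources used here. Estimated counts in the deposited tables are mostly not whole, since kallisto divides reads among transcripts that share sequence. TPM in the deposited tables is scaled by the effective length of each transcript.

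Transcripts were joined to GENCODE 29 by identifier (169797), by symbol (15315) or by place in the table (890), and 2751 of 188753 (0.37 to 0.41% of counts) were left out. Estimated counts were summed per gene, haplotype copies included, rounded, filtered with filterByExpr, scaled by TMM and tested with edgeR 4.0.16 (R 4.3.3) on group alone. Adjusted p-values are Benjamini-Hochberg over all genes or transcripts tested. The procedure was run on simulated data with planted changes larger than the fold changes of the 10 genes. It therefore does not show what size of change could be detected here. Deviations from group means correlated by 0.21, 0.27 and 0.58 between same-numbered libraries over 15223 genes, but the labels do not pair the libraries. The fit on group alone is therefore the main one, and the fit with a block for the replicate number is an alternative. Blocked values stand beside a result where the call changes. Alternatives used DESeq2 1.42.0 and limma 3.58.1. Named were DDX5, the 10 genes, in each list the genes called with or without the block (otherwise the 2 with the smallest unadjusted p), and transcripts with at least 10% of a gene's counts. The genes and lists were chosen with earlier results of these data known. One immune marker is not reported here.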

Additional observations from a re-analysis of the deposited data

How the results depend on the processing

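With 3 libraries a group and 18202402 to 26156858 counts, the spread between libraries limits what can be detected. The number of genes passing was 25 on group alone, 323 with DESeq2, 136 without a filter, 2 with counts from length-scaled TPM, 1 with limma at either pseudocount (1 or 0.1), 4 without both replicate 3 libraries and 394 with the replicate block. It was 0 to 15 when 1 library was left out (0 in edgeR without control replicate 1 and without siDDX5 replicate 1, with 1245 and 2042 at an unadjusted p under 0.05), and 968, 1241 and 211 in the blocked fit without replicate 1, 2 and 3. DDX5 missed the threshold with length-scaled TPM (-1.37, adjusted p = 0.07521) and limma (-1.44 and -1.45, adjusted p = 0.08492 and 0.09269), and without control replicate 1, siDDX5 replicate 1 or siDDX5 replicate 2; without 1 library its log2 fold change was -1.54 to -1.30. Of the 10 genes, 1 passed with the replicate block, and 1, 1 and 0 in that fit without replicate 1, 2 and 3, the first being ATF7IP and the second WIZ. Of the list genes, 2 passed with DESeq2 (SETD1A, SETD1B), 1 without a filter (SETD1A), 3 with the block, and 11, 7 and 0 in the blocked fit without replicate 1, 2 and 3. The counts over all genes given above are of 15223 tested with DESeq2 and with the block, and of 24618 without a filter. In the blocked fit without replicate 1, 2 and 3 they are of 15318, 15518 and 15299. Log2 fold changes that turned sign were those of EHMT2 on primary-assembly transcripts (0.28), SETDB1 (limma -0.008 at both pseudocounts, -0.022 without both replicate 3 libraries and -0.018 in the blocked fit without replicate 3), SUV39H1 (limma -0.031 and -0.032, -0.038 without control replicate 3, -0.088 without siDDX5 replicate 2, -0.088 to 0.126 with 1 library left out and -0.098 in the blocked fit without replicate 2), SETDB2 (0.116 without control replicate 2, 0.02 without siDDX5 replicate 3, -0.235 to 0.116 with 1 library left out and 0.049 in the blocked fit without replicate 2), TRIM28 (-0.016 without control replicate 3, -0.068 without siDDX5 replicate 2, -0.068 to 0.135 with 1 library left out and -0.079 in the blocked fit without replicate 2) and the ratio of SUV39H1 to SUV39H2 (0.025 without siDDX5 replicate 3, -0.311 to 0.025 with 1 library left out). The cause was not tested. EHMT1, WIZ, ZNF644, SUV39H2 and ATF7IP kept their sign in all 19 alternatives each; WIZ ranged from -0.49 to -0.28, ATF7IP from -0.46 to -0.18, EHMT1 from -0.448 to -0.187, ZNF644 from 0.094 to 0.328 and SUV39H2 from 0.033 to 0.248. The list medians also moved: that of the other histone methyltransferases lay between -0.264 and -0.053, that of the demethylases between -0.148 and -0.033, the PRDM genes between -0.923 and -0.145 and the readers between -0.12 and -0.015, and those of the HUSH (-0.169 to 0.02), E2F6 and REST (-0.023 to 0.131), DNA methylation (-0.144 to 0.048) and germline lists (-0.074 to 0.244) took both signs. No usage test or transcript of the 10 genes passed in any alternative. In the replicate block the exact p of the SETDB1 to ATF7IP ratio was 0.25, the smallest it allows. Leaving out both replicate 3 libraries, the blocked fits on fewer libraries and the minimum of 1000 bases were chosen after seeing the data.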
